A study of Mus musculus with 4 samples.

Results

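Meningeal fibroblast and barrier genes were examined in RNA from the cervical spinal cord of NC/Nga mice. The set holds 34 genes, chosen by symbol from a list, and the array carries all 34 of them with 58 probes, out of 45281 probes in all. By role the 34 genes are 6 arachnoid transporters, 1 gap junction gene, 2 forkhead transcription factor genes, 3 retinoid genes, 4 genes of the insulin-like growth factor axis, 13 matrix genes and 5 other secreted or surface proteins. NC/Nga is an inbred mouse strain that develops a skin disease resembling atopic dermatitis in a conventional room and is spared it in specific-pathogen-free (SPF) housing. All mice were males of 9 weeks. There were 4 Illumina BeadChip arrays: 2 of conventionally housed mice with the dermatitis phenotype and 2 of SPF mice with a normal phenotype. Housing and phenotype go together in every array, so their effects cannot be told apart. The labels do not say whether an array holds RNA of 1 mouse or of several, nor whether the meninges were stripped from the cord. The errors below are moderated standard errors of a linear model and take in no variation beyond these arrays. The model draws the variance of each gene towards that of other features, so the errors understate the spread of the most variable members.

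The meninges are the connective tissue sheets around the brain and cord. The arachnoid barrier cells of the middle sheet are joined by tight junctions and carry transporters that clear organic anions, amino acids and other solutes from the cerebrospinal fluid. Fibroblasts of the inner and outer sheets and of the spaces around vessels lay down collagen, small leucine-rich proteoglycans and microfibrils, and secrete retinoic acid, insulin-like growth factor 2 and its binding proteins. In bulk RNA of the cord, fewer cells of a type and less RNA per cell cannot be told apart.

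The arrays themselves stood apart in these genes. SPF array 2 was the highest and conventional array 2 the lowest for most members, with conventional array 1 and SPF array 1 in between, so each group held 1 array at the high or low end. Cord markers were well measured on every array: the neuronal gene Stmn2 had log2 levels of 13.29 and 13.48 in the conventional pair of arrays, against 13.19 and 13.36 in the SPF pair, and the myelin gene Mbp at 14.73 and 14.81 against 14.74 and 14.81. Over all 14634 tested features the arrays correlated at 0.986 to 0.990, and 44.9% to 46.3% of probes were above background. A probe below background is no proof of absence, since the probes of Snap25 and Nefl, which cord neurons express, were above background on 0 arrays.

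Of the 34 members, 31 had a probe above background (detection p under 0.05) on at least 2 of the 4 arrays and were tested. The number of members with any probe above background was 28 on conventional array 1 and 21 on conventional array 2, against 28 on SPF array 1 and 32 on SPF array 2. Slc6a20a, a transporter of proline and related imino acids, was above background on SPF array 1 only, with bead signals of 107.6 and 106.1 on the conventional arrays and 123.5 and 112.3 on the SPF arrays. Foxc2, a forkhead transcription factor gene, was above background on SPF array 2 only, with 117.5 and 104.5 against 102 and 148.5. Efemp1, which encodes the extracellular matrix protein fibulin-3, was above background on 0 arrays. These 3 were not tested.

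Between the groups, 30 of the 31 tested members had a lower mean in conventional cord, against 50.1% of all features. In 10 members the mean was lower by at least 1 log2 unit, against 0.308% of all features. The median log2 difference of the members (conventional minus SPF) was -0.84, against 0.00 (-0.000321) over all features. None passed the test: at an adjusted p under 0.05, limma's moderated linear model called 0 members and 0% of all features. At an unadjusted p under 0.05 it had 4 members lower (Ccn5, Slc22a8, Angptl7 and Bgn), against 1.72% of all features, and 0 higher, against 1.31%. Both conventional arrays lay below both SPF arrays in 5 of 31 members, near the share of all features (15.1%), and above them in 0, against 15.6%. Of those 5, 3 genes, Ccn5, Slc22a8 and Angptl7, entered the test through the SPF arrays alone, being above background on 0 conventional arrays. Of the 21 members above background on all 4 arrays, 21 had a lower mean in conventional cord, with a median of -0.84.

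These counts rested on 2 arrays. Without SPF array 2, 14 of 31 members had a lower mean in conventional cord and the median difference was 0.08. Without conventional array 2, 20 were lower with a median of -0.20. Without conventional array 1 the median was -1.37, and without SPF array 1 it was -1.63, with 31 of 31 lower in each case. Set array against array, conventional array 1 was above SPF array 1 in 26 of 31 members (median 0.61) and below SPF array 2 in 30 (median -1.02). Conventional array 2 was below SPF array 1 in 26 (median -0.52) and below SPF array 2 in 31 (median -2.03). The medians over all features in these 4 comparisons lay between -0.00985 and 0.00939.

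**Figure D1:**
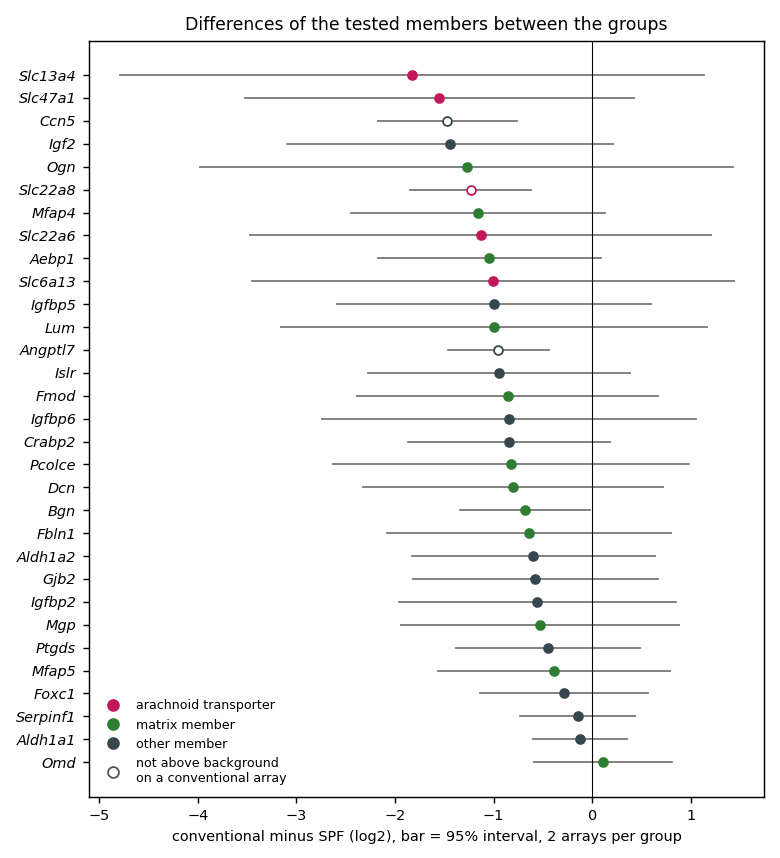
Log2 difference, conventional minus SPF, of the 31 tested members, ordered by size. Points are model estimates, bars 95% intervals with 2 arrays per group, colours mark transporters, matrix and other members, and open points mark genes not above background on a conventional array. In 30 of 31 members the estimate lies below 0, and in 4 of 31 (Ccn5, Slc22a8, Angptl7 and Bgn) the unadjusted interval does not reach 0.

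The arachnoid transporters had the widest spread. Slc13a4, a sodium-coupled sulfate transporter gene, had log2 levels of 9.65 and 6.11 on the conventional arrays and 8.21 and 11.21 on the SPF arrays. In bead signals these were 893 and 155.8 against 394.8 and 2480.4. The highest and the lowest array were 5.10 log2 units apart, the groups overlapped, and the difference of -1.83 ± 1.25 (SE, n = 2 arrays per group in this and every later difference) did not pass limma's test (adjusted p = 1).

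Slc6a13, which encodes the GABA and taurine transporter GAT2, had 9.07 and 6.92 on the conventional arrays and 7.43 and 10.58 on the SPF arrays, a difference of -1.01 ± 1.03. Slc47a1, the multidrug and toxin extruder MATE1, had 7.37 and 5.05 against 6.79 and 8.73, a difference of -1.55 ± 0.83. Its level on conventional array 2 lay near the lowest that counted as above background there (5.03). The other Slc47a1 probes were above background on 0 arrays. Slc22a6, the organic anion transporter OAT1, had 5.76 and 4.51 against 4.57 and 7.96, and was above background on conventional array 1 and SPF array 2 only. In Slc6a13 and Slc47a1, as in Slc13a4, the order from high to low was SPF array 2, conventional array 1, SPF array 1, conventional array 2. In Slc22a6 SPF array 2 was the highest and conventional array 1 next, and the rank of the others was not measured.

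Slc22a8, the organic anion transporter OAT3, departed from that order. Its log2 levels were 4.79 and 4.78 on the conventional arrays, not above background on either, and 5.71 and 6.32 on the SPF arrays. The groups did not overlap, and with this background correction the level on the conventional arrays was at least 1.97-fold lower. This bound compares the SPF mean with the lowest level that counted as above background on each conventional array, and carries no error. It depended on the background correction, being 1.49-fold with normexp at an offset of 50 and 1.26-fold with no correction. Slc22a8 entered the test through the SPF arrays alone, so the filter favoured a lower conventional mean. Neither the bound nor the range that follows tests a difference. The fitted difference was -1.23 ± 0.26 (limma, adjusted p = 1), and it ranged from -1.54 without SPF array 1 to -0.93 without SPF array 2. It was -0.69 at an offset of 50, -0.42 with no correction and -0.20 in the authors' value table. Slc22a8 and Slc22a6 are direct neighbours on chromosome 19, yet conventional array 1 held 5.76 for Slc22a6, above SPF array 1 at 4.57, and 4.79 for Slc22a8, below SPF array 1 at 5.71.

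The gap junction gene Gjb2, which encodes connexin 26, followed the common order, at 8.42 and 7.11 against 7.68 and 9.00 (difference -0.58 ± 0.52). Its neighbour on chromosome 14, the astrocyte connexin gene Gjb6, had 11.97 and 12.02 against 11.57 and 12.07. Slc6a12, the betaine and GABA transporter gene next to Slc6a13 on chromosome 6, had 7.21 and 4.99 against 5.60 and 8.38, in the same order as Slc6a13. Of 14 other barrier transporters fixed for comparison, 8 were tested, 3 had a lower and 5 a higher mean in conventional cord, 0 passed the test, and the median difference was 0.21. Among them Slc2a1, the glucose transporter gene of the vessel barrier, had 11.82 and 11.88 against 11.65 and 11.56 (0.25 ± 0.11). Slc38a2, an amino acid transporter gene, had 11.07 and 11.49 against 10.79 and 11.36. The vessel transporter gene Slco1c1 had 6.81 and 7.0 against 6.61 and 6.34, and the efflux pump gene Abcc4 had 7.73 and 7.64 against 7.27 and 7.39, neither of them passing the test.

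To show the start regions of genes with the largest spread next to those of the neighbouring pair that differed in array order, 4 RefSeq promoter windows (GRCm38.p6) of 300 bases are printed, of 25 members with an entry in the promoter table. Slc13a4 (chr6:35308077-35308376, minus strand) had the largest spread of the transporters and Ogn (chr13:49607765-49608064, plus strand) that of the matrix genes. Slc22a6 (chr19:8617746-8618045, plus strand) and Slc22a8 (chr19:8592932-8593231, plus strand) are the neighbouring anion transporter genes. Capitals mark matches, on either strand, to the TATA box TATAAA, the CCAAT box, the GC box GGGCGG, the TEAD factor core GGAATG or the forkhead core GTAAACA, and some matches overlap. The motifs were chosen after the array values were seen.
Slc13a4: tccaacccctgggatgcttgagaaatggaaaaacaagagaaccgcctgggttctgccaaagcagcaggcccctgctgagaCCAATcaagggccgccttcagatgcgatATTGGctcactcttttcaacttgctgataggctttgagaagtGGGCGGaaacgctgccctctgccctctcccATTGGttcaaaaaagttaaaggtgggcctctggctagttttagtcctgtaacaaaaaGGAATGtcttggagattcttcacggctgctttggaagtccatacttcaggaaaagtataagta
Ogn: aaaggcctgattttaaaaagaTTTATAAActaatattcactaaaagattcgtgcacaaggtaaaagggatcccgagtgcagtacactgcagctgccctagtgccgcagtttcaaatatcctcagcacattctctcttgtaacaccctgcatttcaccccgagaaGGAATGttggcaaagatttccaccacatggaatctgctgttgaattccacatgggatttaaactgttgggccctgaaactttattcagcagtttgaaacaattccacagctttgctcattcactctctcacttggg
Slc22a6: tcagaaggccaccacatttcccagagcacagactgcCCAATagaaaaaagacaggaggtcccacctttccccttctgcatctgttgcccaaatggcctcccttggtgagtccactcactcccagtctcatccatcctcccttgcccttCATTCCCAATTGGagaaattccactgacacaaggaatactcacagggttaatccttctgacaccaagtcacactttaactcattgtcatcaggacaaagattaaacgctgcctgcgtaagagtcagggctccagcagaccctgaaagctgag
Slc22a8: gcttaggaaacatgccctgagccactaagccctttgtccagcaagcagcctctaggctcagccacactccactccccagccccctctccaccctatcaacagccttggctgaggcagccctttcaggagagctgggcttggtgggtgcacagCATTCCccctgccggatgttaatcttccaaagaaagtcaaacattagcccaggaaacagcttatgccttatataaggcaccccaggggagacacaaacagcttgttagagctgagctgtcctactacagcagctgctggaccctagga

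GGAATG occurred in each of these 4 windows, in 10 of 33 windows of the members (8 of 25 genes), and in 14.7% of all 32851 windows. TATAAA occurred in 2 of 33 member windows, those of Ogn and Igfbp6, against 13.6% of all windows. CCAAT occurred in 11 of 33 against 37.4%, GGGCGG in 13 of 33 against 35.7%, and GTAAACA in 0 of 33 against 3.65%. A match is a description of the letters and not a bound site.

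Of the transcription factor genes, Foxc1, which meningeal fibroblasts need in development, had 5.96 and 6.39 on the conventional arrays and 5.95 and 6.98 on the SPF arrays (difference -0.29 ± 0.36). Its conventional array 2 was above conventional array 1, the opposite of most members. The retinoid gene Aldh1a2, which makes retinoic acid, had 6.54 and 5.0 against 5.92 and 6.82 (-0.60 ± 0.52). Crabp2, a carrier of retinoic acid to its nuclear receptor, had 5.51 and 4.63 against 5.35 and 6.48 (-0.84 ± 0.43). Both followed the common order, and both were above background on 1 of 2 conventional arrays.

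Aldh1a1, the other retinaldehyde dehydrogenase, which some neurons and vessels also express, had the narrowest spread of the tested members, at 8.88 and 8.35 against 8.75 and 8.74. Its difference was -0.13 ± 0.20, with a 95% interval from -0.60 to 0.35. Of 14 other retinoid genes, 7 were tested, 6 had a lower and 1 a higher mean in conventional cord, 0 passed, and the median was -0.10. Stra6, the membrane receptor for retinol-binding protein and the neighbour of the member Islr, had 6.14 and 4.76 against 5.73 and 6.87, in the common order. Rbp4, which encodes that binding protein, had 5.78 and 4.87 against 5.11 and 6.53, in the same order. The receptor gene Rarb had 7.45 and 7.23 against 6.56 and 7.17, and the binding protein gene Crabp1 had 6.40 and 6.94 against 6.99 and 6.51, in other orders.

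Igf2, the growth factor gene that meningeal cells express in the adult nervous system, had bead signals of 4827.1 and 1713.4 on the conventional arrays and 3859.6 and 15614.8 on the SPF arrays. On the normalized scale these were 12.20 and 10.73 against 11.84 and 13.97. The difference was -1.44 ± 0.70 with overlapping groups (limma, adjusted p = 1), and conventional array 1 was above SPF array 1. The binding protein gene Igfbp5 had 11.72 and 9.61 against 11.02 and 12.30 (-0.99 ± 0.67), and its 3 probes gave the same array order.

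Igfbp6, whose protein prefers insulin-like growth factor 2, had 7.30 and 5.72 against 6.14 and 8.57 (-0.84 ± 0.80), in the common order. Igfbp2, the neighbour of Igfbp5 on chromosome 1, had 8.39 and 8.22 against 7.79 and 9.93 (-0.56 ± 0.59), so that the gap lay almost wholly between the SPF arrays. Of the 10 other genes of this axis, 9 were tested, 6 had a lower and 3 a higher mean, 0 passed, and the median was -0.08. Igfbp3 (7.80 and 6.19 against 6.84 and 8.92) and Igf1 (7.67 and 6.36 against 6.69 and 8.87) followed the common order. Igfbp4 did not, at 8.11 and 7.95 against 8.62 and 8.72 (-0.64 ± 0.16, limma, adjusted p = 1). Nor did the protease gene Htra1, at 11.38 and 11.63 against 10.82 and 11.20 (0.50 ± 0.16), and Igfbp7 had 10.86 and 10.57 against 10.66 and 10.86.

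Among the matrix genes, 12 of 13 were tested, 11 had a lower and 1 a higher mean in conventional cord, and 0 passed. The proteoglycan gene Ogn, which encodes osteoglycin, had 8.41 and 5.70 on the conventional arrays and 6.71 and 9.95 on the SPF arrays, a difference of -1.27 ± 1.14. Dcn, which encodes the collagen-binding proteoglycan decorin, had 10.60 and 8.99 against 9.73 and 11.45 (-0.80 ± 0.64). Its neighbour Lum, which encodes lumican, had 7.41 and 5.10 against 6.05 and 8.45 (-0.99 ± 0.91). These 3 and Fmod, which encodes fibromodulin (6.35 and 5.31 against 5.67 and 7.70), followed the common order.

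Bgn, which encodes biglycan and is also expressed outside the meninges, had 10.45 and 9.66 against 10.47 and 11.01. The groups did not overlap, by a margin of 10.45 against 10.47, and the difference of -0.68 ± 0.28 was -1.07 without conventional array 1 and -0.29 without conventional array 2. Omd, which encodes osteomodulin and lies next to Ogn, had 5.18 and 4.95 against 4.57 and 5.35, was above background on 1 array of each group, and was the only tested member with a higher mean in conventional cord (0.11 ± 0.29). Of 9 other small leucine-rich proteoglycan genes, 4 were tested and 0 passed, with a median of -0.16. Prelp, the neighbour of Fmod, had 10.46 and 9.61 against 10.14 and 10.61, in the common order, and Chad had 6.02 and 5.26 against 6.01 and 5.80. Nyx had 5.09 and 5.44 against 5.08 and 5.0. Kera, next to Lum, and Aspn, next to Omd, were above background on 0 arrays.

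Of the microfibril and fibulin genes, Fbln1, which encodes fibulin-1, had 10.07 and 8.62 against 9.14 and 10.83 (-0.64 ± 0.61), and its 4 probes above background gave 1 array order. Mfap4, a microfibril-associated protein gene, had 5.95 and 6.14 against 6.27 and 8.15, with no overlap between the groups but 6.14 against 6.27 at the border (-1.16 ± 0.54, and -0.22 without SPF array 2). Mfap5 had 5.25 and 4.77 against 4.59 and 6.21 and was above background on 1 array of each group. Of 14 other microfibril and elastic fibre genes, 9 were tested, 6 had a lower and 3 a higher mean, 0 passed, and the median was -0.31. The elastin gene Eln had 5.08 and 5.12 against 5.39 and 6.64 (-0.92 ± 0.39), and the crosslinking enzyme gene Loxl1 had 7.79 and 6.73 against 7.36 and 9.45. Ltbp4, a carrier of latent TGF-beta, had 7.73 and 7.95 against 8.26 and 8.56 (-0.57 ± 0.19, limma, adjusted p = 1), and Ltbp3 had 9.05 and 9.52 against 9.04 and 9.29.

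Among the remaining matrix genes, Mgp and Aebp1 kept the common order. Mgp, the inhibitor of soft tissue calcification, had 10.35 and 9.18 against 9.38 and 11.22 (-0.53 ± 0.60). Aebp1, which encodes the collagen-binding protein ACLP, had 9.27 and 7.89 against 9.12 and 10.12 (-1.04 ± 0.48). Pcolce, an enhancer of procollagen processing, had 5.92 and 4.57 against 4.87 and 7.26 and was above background on conventional array 1 and SPF array 2 only.

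Among the other secreted and surface proteins, Ccn5, a matricellular protein gene annotated earlier as Wisp2, had log2 levels of 5.0 and 4.58 on the conventional arrays, not above background on either, and 5.91 and 6.61 on the SPF arrays. Angptl7, an angiopoietin-like protein gene, had 4.97 and 4.83, again not above background, against 5.72 and 5.98. Another Angptl7 probe, above background on SPF array 1 only and not tested, had 4.73 and 4.83 against 5.14 and 5.01. Its difference was -0.30, and SPF array 1 was above SPF array 2. With this background correction the levels of Ccn5 and Angptl7 on the conventional arrays were at least 2.33-fold and at least 1.76-fold lower. Both genes entered the test through the SPF arrays alone, so the filter favoured a lower conventional mean. Neither these bounds, which carry no error, nor the ranges that follow test a difference. The bounds were 1.66-fold and 1.37-fold at an offset of 50, and 1.35-fold and 1.20-fold with no correction. The fitted differences were -1.47 ± 0.30 for Ccn5 and -0.95 ± 0.22 for Angptl7 (limma, adjusted p = 1 for both). Leaving out each array in turn gave -1.82 to -1.12 for Ccn5 and -1.08 to -0.82 for Angptl7. An offset of 50 gave -0.85 and -0.52, no correction -0.54 and -0.31, and the authors' value table -0.26 and -0.15.

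For Slc22a8, Ccn5 and Angptl7 the SPF arrays were closer together than in most members. SPF array 2 exceeded SPF array 1 by 0.61, 0.69 and 0.26 log2 units in these genes, against a median of 1.69 over the members. The median span of all features over the 4 arrays was 0.39. Ptgds, which encodes the prostaglandin D2 synthase made by arachnoid cells and oligodendrocytes, had 11.84 and 11.35 against 11.37 and 12.71 (-0.45 ± 0.40). Islr had 5.63 and 4.76 against 5.26 and 7.02 (-0.94 ± 0.56). Serpinf1, which encodes pigment epithelium-derived factor, had 9.85 and 9.99 against 9.67 and 10.46 (-0.15 ± 0.25), with conventional array 2 above conventional array 1.

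**Figure D2:**
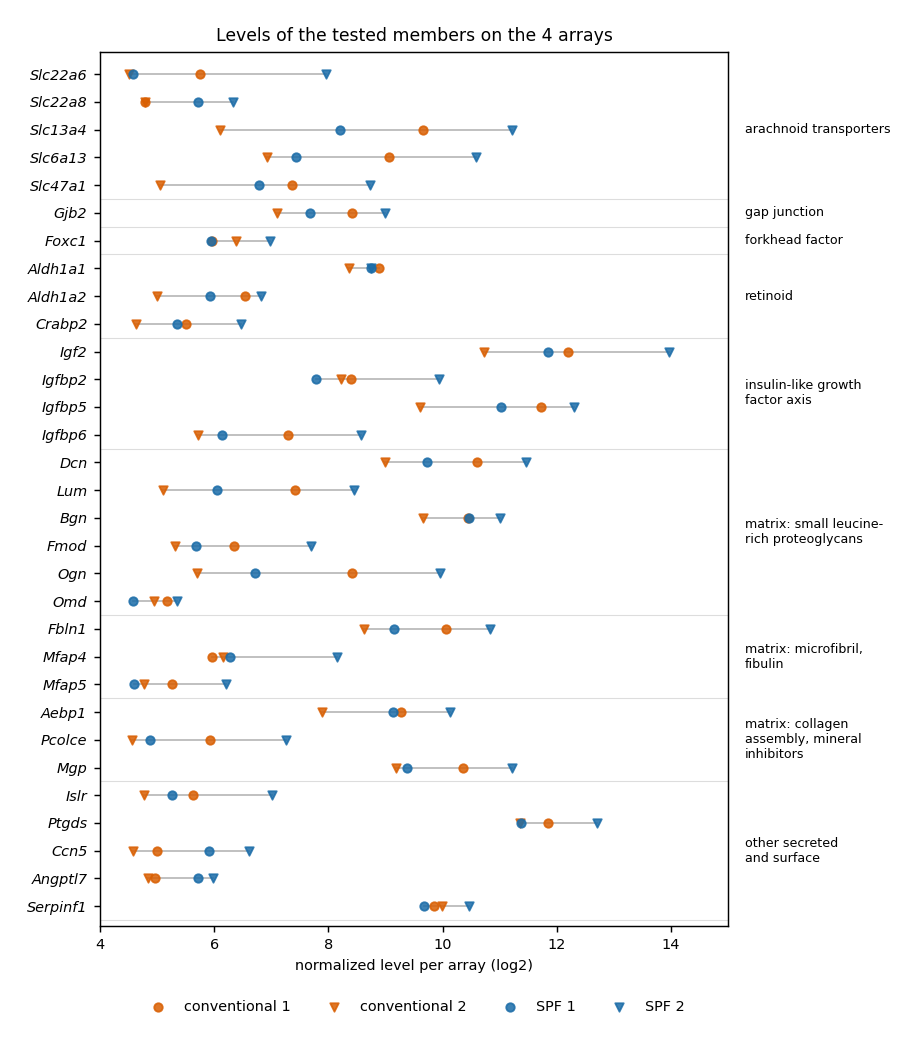
Normalized log2 level of each tested member on the 4 arrays, grouped by role, with the line running from the lowest to the highest array. SPF array 2 (blue triangle) is the highest in 30 of 31 members and conventional array 2 (orange triangle) the lowest in 25.

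The members shared their order of arrays. SPF array 2 was the highest in 30 of 31, against 22.6% of all features, and conventional array 2 the lowest in 25, against 25.1%. The full order SPF array 2, conventional array 1, SPF array 1, conventional array 2 was found in 20 of 31 members, against 3.03% of all features, and in 15 of the 21 members above background on all 4 arrays. In 7 members with several probes above background on at least 2 arrays, these probes of a gene gave 1 order and 1 direction in 7 of 7. For Aldh1a2, however, the lower arrays of the other probe, conventional array 2 and SPF array 1, were below background, and their rank was not measured. The order with at most 1 array below background was found in 18 members, against 2.67% of all features. In Slc22a6 and Pcolce both lower arrays were below background, and their rank was not measured. Among the other members, Slc22a8, Bgn, Ccn5, Angptl7 and Mfap4 had both SPF arrays on top. These were 5 of 31 members, near the share of all features (15.1%). Igfbp2, Foxc1, Serpinf1 and Aldh1a1 had another order, and in Omd and Mfap5 the 2 lower arrays were below background.

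At the median over the members, the gap between the arrays of a group was larger than the difference between the groups (-0.84). In Slc22a8, Ccn5 and Angptl7 the gap between the SPF arrays was smaller than the fitted difference (-1.23, -1.47 and -0.95). These genes were above background on 0 conventional arrays, so their gap between the conventional arrays was not measured. They entered the test through the SPF arrays alone, so the filter favoured a lower conventional mean. Conventional array 1 exceeded conventional array 2 in 28 of 31 members by a median of 1.17 log2 units, and SPF array 2 exceeded SPF array 1 in 30 of 31 by a median of 1.69. Over all features these 2 medians were -0.00483 and 0.00837, with 49.1% and 51.1% above 0. Both gaps were positive in 27 of 31 members, against 18.6% of all features. The median span from the lowest to the highest array was 2.20 log2 units for the members and 0.39 for all features. Of the members, 19 spanned at least 2 log2 units, against 0.601% of all features, and 19 were among the 100 features with the largest SD over the 4 arrays, against 0.683%. The full order together with a span of at least 2 log2 units was found in 16 members, against 0.369% of all features. Slc13a4 ranked 3, Ogn 4, Slc6a13 7 and Slc22a6 9 by that SD among 14634 features.

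**Figure D3:**
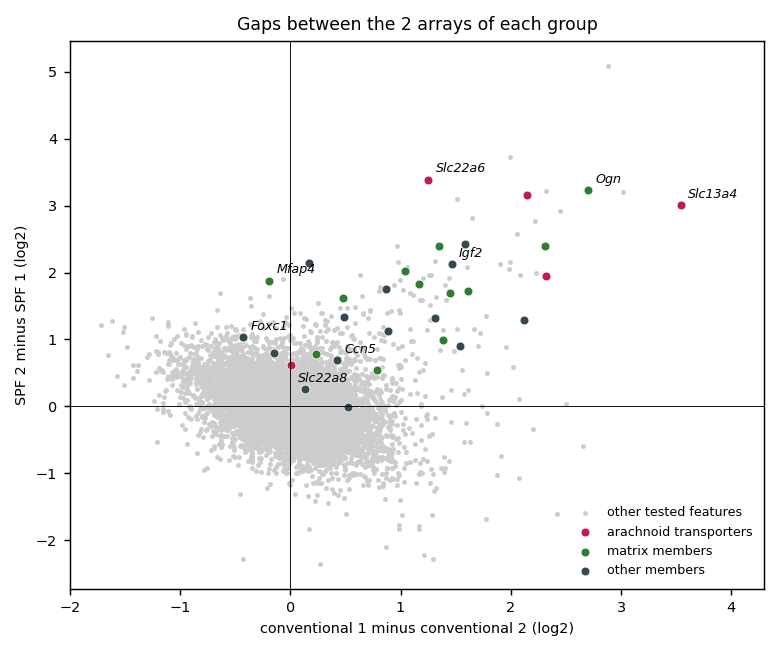
Gap between the 2 conventional arrays (x axis, array 1 minus array 2) and between the 2 SPF arrays (y axis, array 2 minus array 1), in log2 units, for all 14634 tested features (grey) and the 31 members (coloured by role). 27 members lie in the upper right, where both gaps are above 0, Slc13a4 farthest to the right at 3.54 and 3.0.

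Transporters and matrix genes lay on the same side of their means on each array, by different amounts. The median deviation of the 5 tested transporters from their own 4-array means was 0.38 on conventional array 1 and -1.58 on conventional array 2, and -0.59 on SPF array 1 and 2.08 on SPF array 2. For the 12 tested matrix genes these were 0.22 and -1.0 on the conventional arrays and -0.55 and 1.22 on the SPF arrays. The median span was 3.66 log2 units for transporters and 2.22 for matrix genes. The median difference between the groups was -1.23 for transporters and -0.81 for matrix genes. In the authors' value table these medians were -0.52 and -0.43, and with no background correction -0.82 and -0.54. Without SPF array 2 the transporter median was -0.33 and the matrix median 0.20. Without conventional array 2 they were -0.39 and -0.07, without conventional array 1 -2.08 and -1.38, and without SPF array 1 -2.59 and -1.60. The gap between transporters and matrix genes was not tested, since the sets were chosen with results of these data known.

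Marker lists of other cell types were read on the same arrays. Of 18 other meningeal fibroblast markers, 14 were tested, 12 had a lower and 2 a higher mean in conventional cord, 0 passed, and the median difference was -0.50. Conventional array 1 exceeded conventional array 2 in 14 of 14 and SPF array 2 exceeded SPF array 1 in 13 of 14. Ranbp3l had 7.81 and 5.82 on the conventional arrays and 7.04 and 9.19 on the SPF arrays (-1.29 ± 0.81). The epithelial cadherin gene Cdh1, which arachnoid barrier cells express, had 5.59 and 4.58 against 5.76 and 6.67 (-1.13 ± 0.42), and Itih2 had 5.91 and 4.94 against 5.03 and 7.43. Vtn, also a pericyte gene, had 10.58 and 10.12 against 10.04 and 11.51. Tbx18 and Foxd1 were above background on 0 arrays. The summed level of the 14, on the linear scale with the offset of 16 included for each gene, was 33866 and 31575 in conventional cord and 34387 and 36055 in SPF cord, most of it from Cldn11, which oligodendrocytes also express (14.90 and 14.85 against 14.97 and 14.89).

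In a list of fibroblast collagen genes and Pdgfra, 8 of 9 tested genes were lower, with a median of -0.31 and 0 passing. Col1a1 had 6.50 and 5.18 against 5.94 and 7.58, and Col5a1 had 6.65 and 5.24 against 6.28 and 7.87. Col6a2 had 6.03 and 5.44 against 6.11 and 6.96 (-0.80 ± 0.34). The full order was found in 3 of the 9. Col6a2 did not keep it, nor did Col16a1, at 9.31 and 9.89 against 9.48 and 9.90, or the precursor cell marker Pdgfra, at 9.18 and 9.21 against 9.44 and 9.46. The summed level of the 9 was 1921 and 2008 in conventional cord and 1965 and 2880 in SPF cord.

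Markers of border macrophages, which live in the meninges and around vessels, had both gaps positive in 6 of 6 tested genes, with a median difference of -0.13. Mrc1 had 6.75 and 4.98 against 6.11 and 7.47, Cbr2 had 5.87 and 4.77 against 5.35 and 6.13, and Lyve1 had 5.88 and 4.80 against 4.90 and 6.06. Stab1 had 8.14 and 7.95 against 8.08 and 8.24. The summed level of the list was 690 and 410 in conventional cord and 490 and 781 in SPF cord.

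Markers of choroid plexus epithelium, a tissue of the brain ventricles, were at low levels. Of 10, 5 were tested, 4 had a lower and 1 a higher mean in conventional cord, 0 passed, and the median difference was -0.16. Both gaps were positive in 3 of 5, the full order was found in 0, and Otx2 was above background on 0 arrays. The transthyretin gene Ttr, the one with the higher mean, had 6.77 and 5.10 against 4.93 and 6.10. Sostdc1, above background on 0 conventional arrays, had 5.0 and 4.45 against 5.17 and 5.21, with no overlap (-0.47 ± 0.25). Cldn1 had 5.54 and 4.95 against 5.38 and 5.48, and Clic6 had 5.31 and 6.35 against 5.77 and 6.21. Kl had 6.18 and 6.01 against 6.26 and 6.14. Schwann cell markers had both gaps positive in 3 of 4 tested genes, Pmp22 at 11.08 and 10.57 against 11.13 and 11.17.

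Skeletal muscle and erythroid markers had another array order, but they too had lower means in conventional cord. Of the tested genes, 7 of 7 skeletal muscle markers were lower, with a median difference of -1.0. The erythroid markers were lower in 5 of 5, with a median of -1.05, against 50.1% of all features. In both lists 0 passed. Bone and cartilage markers did not go that way: of 4 tested, 1 was lower and 3 higher, with a median of 0.05. The 1 tested dorsal root ganglion neuron marker, Prph, had a difference of 0.58 ± 0.21. In these lists too, 0 passed. Skeletal muscle markers were highest on SPF array 1, with median deviations of -0.26 and -0.75 on the conventional arrays and 1.21 and -0.20 on the SPF arrays, and both gaps were positive in 0 of 7. Their summed level was 688 and 430 in conventional cord and 1883 and 600 in SPF cord, Acta1 having 8.23 and 7.35 against 9.70 and 7.60. Erythroid markers had median deviations of -0.16 and -0.89 on the conventional arrays and 0.77 and 0.29 on the SPF arrays, and summed levels of 21194 and 13063 against 43143 and 29548. Conventional array 2 was the lowest array for 7 of 7 muscle and 5 of 5 erythroid genes, as for most members.

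At the median, markers of the vessel wall and of the cord did not share the members' spread. Their median span over the 4 arrays lay between 0.30 (cord neurons) and 0.79 log2 units (microglia), against 2.20 for the members. The span of median deviations ran from -0.21 to 0.13 for endothelium (5 of 6 tested genes with a higher mean in conventional cord) and from -0.33 to 0.24 for pericytes and vascular smooth muscle. For cord neurons it ran from -0.04 to 0.03, for astrocytes from -0.17 to 0.20, for oligodendrocytes from -0.17 to 0.38 and for microglia from -0.27 to 0.35. The full order of the members was found in 0 tested genes of these 6 lists. Means in conventional cord were lower in 6 of 6 oligodendrocyte and 4 of 5 microglia genes. They were lower in 3 of 5 pericyte and smooth muscle, 3 of 7 cord neuron and 3 of 7 astrocyte genes. Single genes spread more, Acta2 spanning 1.44 log2 units and Gfap 0.97. Opalin had a difference of -0.92 ± 0.11 with no overlap (limma, adjusted p = 0.476). The part of meningeal, blood or muscle RNA in the differences of the members between the groups was not tested.

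**Figure D4:**
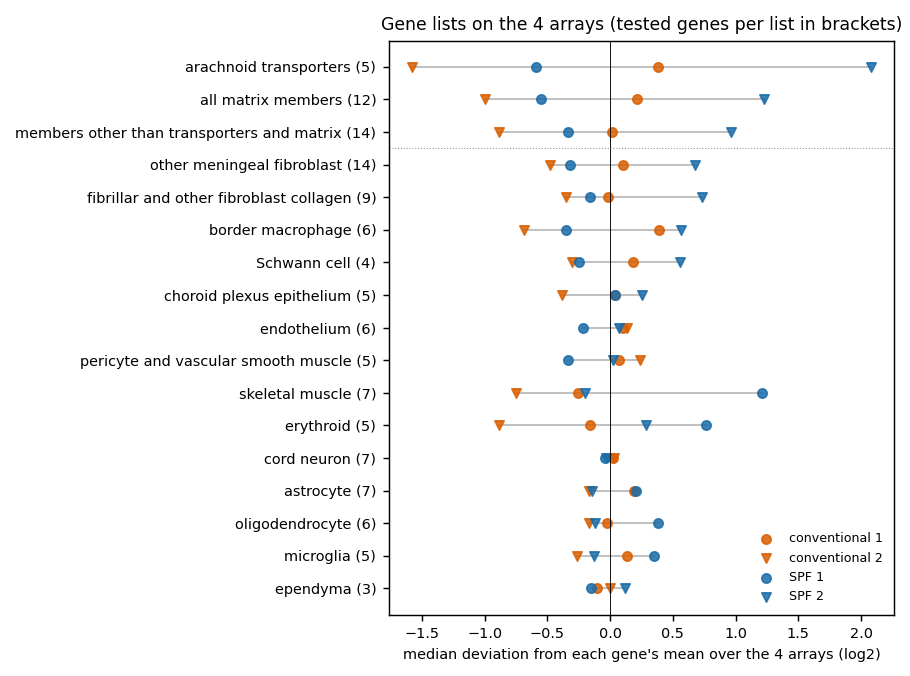
Median deviation, in log2 units, of the tested genes of each list from their own means over the 4 arrays, for conventional (orange) and SPF (blue) arrays, with the number of tested genes in brackets. The 3 member sets above the dotted line run from at most -0.89 on conventional array 2 to at least 0.97 on SPF array 2, muscle and erythroid markers are highest on SPF array 1, and cord neuron markers stay between -0.04 and 0.03.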

How the data were processed

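RNA of 4 cord samples was measured on 4 arrays, 1 per sample, grouped by title. Per the file headers, the deposited intensity of each probe is a bead signal without normalization, and its values are linear. Each carries a detection p-value, deposited beside it per the file headers, which is read here as a test against negative-control beads. The authors' value table holds intensity values they had normalized, and its medians are 216.5 to 216.6. The submitters' processing notes name lumi. No source used here gives its settings or a genome build. Gene names came through the platform annotation (34885 probes with 1 symbol, 18 with several, 10378 with none), and 34807 probes matched a gene of the RefSeq table of GRCm38.p6, used for names and neighbours.

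Background correction and quantile normalization used the neqc function of limma 3.58.1 (R 4.3.3, offset 16, log2). Probes with a detection p under 0.05 on at least 2 of 4 arrays were kept, and a gene was represented by its kept probe of highest mean, giving 14634 features. The groups were compared with lmFit and eBayes (trend) in a two-sided test, and p-values were adjusted over all features by Benjamini-Hochberg, with a threshold of 0.05. In 10 simulations at this size, with 200 genes changed, the fit called 90.3% at a change of 2 log2 units, 34.8% at 1 and 0.896% at 0.5. The simulated noise was independent between genes and had the variance of typical features. The members spread more widely, with a median SD over the 4 arrays of 0.94 against 0.17 for all features. These rates therefore do not hold for the members. Other background corrections, normalizations, detection filters, probe summaries, prior settings, a replicate block, the authors' value table and leaving out each array were tried as alternatives. Promoter sequences are from RefSeq (GRCm38.p6). The text names all members and, of each other list, the 3 genes of largest difference and the 2 of highest level, as far as they bear on the members. The members and lists were chosen with earlier results of these data known.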

Additional observations from a re-analysis of the deposited data

How the results depend on the processing

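Under 12 other ways of processing and 1 added after seeing the data (only members above background on all 4 arrays), 0 members passed and 0 turned sign. The median difference of the members ranged from -0.86 (mean of a gene's probes) to -0.35 (the authors' value table, whose low values are compressed). For Slc22a8, Ccn5 and Angptl7 that table gave -0.20, -0.26 and -0.15. Leaving out each array in turn called 0 members and 0 to 2 features, and 20 members turned sign: 16 without SPF array 2, 10 without conventional array 2, and Omd alone without conventional array 1 or SPF array 1. Their ranges over the 4 fits were Slc22a6 (-2.83 to 0.56), Slc6a13 (-2.59 to 0.57), Gjb2 (-1.24 to 0.0836), Foxc1 (-0.80 to 0.23), Aldh1a1 (-0.39 to 0.14), Aldh1a2 (-1.37 to 0.17), Igfbp2 (-1.63 to 0.52), Igfbp5 (-2.05 to 0.0628), Igfbp6 (-2.06 to 0.37), Dcn (-1.66 to 0.0598), Lum (-2.19 to 0.21), Fmod (-1.87 to 0.16), Ogn (-2.89 to 0.34), Omd (-0.28 to 0.50), Fbln1 (-1.49 to 0.20), Mfap5 (-1.20 to 0.42), Pcolce (-2.02 to 0.37), Mgp (-1.45 to 0.39), Ptgds (-1.12 to 0.22) and Serpinf1 (-0.55 to 0.25). The cause was not tested. With the replicate number as a block, 5 features and 0 members passed (lowest adjusted p of a member 0.379). Nothing in the labels ties equal numbers, and deviations of same-numbered arrays correlated at 0.20 over all features and -0.63 over the members. The block changed no call of a member. The files give no slide, so a slide block was not run. Of the tested members, 10 were not above background on every array, which limits the precision of their differences. A group with 1 array was assumed to vary like the other.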

Other observations

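Outside the 34 genes, other transcripts with a large spread had the same order of arrays. Of the 14634 features, 54 had the order SPF array 2, conventional array 1, SPF array 1, conventional array 2 with a span of at least 2 log2 units. Of these, 16 were members, 11 stood in another of the lists and 2 were probes without a gene name. The following genes were chosen after their values were seen. Lypd2, which encodes a protein of the Ly6 family, had log2 levels of 7.19 and 4.87 on the conventional arrays and 5.85 and 9.07 on the SPF arrays. Moxd1, a monooxygenase-like gene, had 7.94 and 5.50 against 6.19 and 9.12, and Fam180a had 7.15 and 5.50 against 5.95 and 8.77. Serping1, which encodes the C1 inhibitor of complement, had 9.48 and 7.49 against 8.36 and 10.41. None passed limma's test (adjusted p = 1).

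Wnt4, a secreted signalling factor gene, was the highest-ranked gene by SD outside the lists with both conventional arrays below both SPF arrays, at 7.32 and 5.37 against 7.67 and 8.56 (difference -1.77 ± 0.60, limma, adjusted p = 1). Gh, which encodes growth hormone, had 7.39 and 5.40 on the conventional arrays and 4.89 and 8.61 on the SPF arrays, so the highest level was on SPF array 2 and the lowest on SPF array 1.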
